A study of Mus musculus with 18 samples.

Results

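A set of 6 genes of mouse eosinophils was followed across all groups: Abcg3, Adra2a, Btnl9, Mapt, Cbx8 and Tpbpa. They were 6 of the 54446 genes in the deposited table. They were picked, with no numeric threshold, because their level in eosinophils fed with apoptotic cells changed by a large factor when IFN-γ or E. coli was added, and because they are not among the genes usually followed in responses to IFN-γ or bacteria. The levels in the IFN-γ and E. coli groups are therefore given as a description, with no test. Where it is said which of them were past a threshold there, this describes the choice and is no evidence. The IL-4 experiment played no part in the choice, and a test of the 6 genes is reported only there.

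The eosinophils came from the peritoneal cavity of Il5 transgenic mice, labelled strain C57BL/6, in which IL-5 made by T cells from the transgene raises eosinophil numbers, and every group carried this transgene. All 18 libraries were from eosinophils cultured for 18 h with apoptotic cells (ACs), which were dexamethasone-killed thymocytes of wild-type mice at 5 per eosinophil, and then repurified by Siglec-F. The Type 1 experiment held ACs, E. coli + ACs, IFN-γ + ACs and IFN-γ + E. coli + ACs, in which IFN-γ preceded the bacteria. The IL-4 experiment held its own ACs libraries and IL-4 + ACs. Each of the 6 groups had 3 libraries, which the labels do not tie to separate mice, so that the p-values measure the spread between these libraries. Eosinophils cultured without ACs were not analysed here.

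RNA was counted at the 3′ ends of transcripts by CEL-Seq2 and is given as normalised count, which is the read count divided by a size factor per library. Total reads per library ran from 779421 to 7782072, with a median of 4461121. The 2 shallow libraries were replicate 3 of each group of the IL-4 experiment, with 779421 and 849705 reads. One read there was worth 5.36 and 5.14 normalised counts. Of the defining eosinophil genes, Siglecf, Ccr3, Alox15, Cebpe and Gata1 were abundant in the ACs libraries, whereas Epx and Prg3, which encode granule proteins, were near 0 in the Type 1 experiment. The study's methods report high purity and viability by flow cytometry in all samples after repurification. Macrophage genes such as C1qa were also abundant, and C1qc was the highest of these markers in the Type 1 ACs libraries, at a mean of 8319. The summed level of 12 macrophage markers was 16189 to 20370 in ACs, 8475 to 10188 in E. coli + ACs, 23228 to 32469 in IFN-γ + ACs and 9790 to 9971 in IFN-γ + E. coli + ACs. The sum of 13 eosinophil markers was 18409 to 19841, 19982 to 21476, 11321 to 13015 and 16960 to 20108 in the same order. The libraries of IFN-γ + ACs thus carried the lowest eosinophil sum and the highest macrophage sum of the Type 1 experiment. Other markers summed to 160 to 368 (thymocyte or T cell), 334 to 895 (neutrophil), 21.1 to 92.4 (B cell), 5.64 to 67.6 (mast cell) and 93.6 to 278 (endothelial, mesothelial or stromal) in the Type 1 libraries. In bulk RNA, fewer cells of a type and less RNA per cell cannot be told apart.

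The 6 genes have little in common by function. The products of 3 of them lie in membranes. Abcg3 encodes a half-transporter of the ABCG family of ATP-binding cassette proteins, Adra2a the alpha-2A adrenergic receptor, which couples noradrenaline to inhibitory G proteins, and Btnl9 a butyrophilin-like protein of the immunoglobulin superfamily. Mapt encodes tau, a microtubule-binding protein best known in neurons. Cbx8 encodes a chromobox subunit of canonical polycomb repressive complex 1 (PRC1), which binds trimethylated lysine on histone H3 and keeps developmental genes silent. Tpbpa encodes trophoblast specific protein alpha, a marker of the spongiotrophoblast of the mouse placenta. IFN-γ acts on genes with GAS elements and, by way of IRF factors, on those with ISRE elements. E. coli is sensed by Toll-like receptors, which drive NF-κB and AP-1.

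In GRCm38 coordinates, with the annotation GENCODE M21, Abcg3 lies at chr5:104935057-104982718 on the minus strand, Adra2a at chr19:54044151-54048982 on the plus strand and Btnl9 at chr11:49165585-49187159 on the minus strand. Mapt lies at chr11:104231390-104332090 on the plus strand, Cbx8 at chr11:119036305-119040969 on the minus strand and Tpbpa at chr13:60938492-60941984 on the minus strand. All 6 are annotated as protein-coding. Within Abcg3 the table lists Gm43856 on the same strand, at 0 to 20.6 normalised counts, so that reads of the 2 could not be told apart with certainty. The transcripts annotated opposite to Abcg3 and Mapt were at 0 in all libraries.

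RefSeq promoter sequences (GRCm38.p6, 250 bases before to 50 bases after the start) matched 5 of the 6 genes. Shown are those of Btnl9 and Cbx8, whose levels followed each other most closely of all pairs of the 6, and that of Tpbpa, the one gene that was higher with E. coli. They lie at chr11:49187040-49187339, chr11:119040864-119041163 and chr13:60941887-60942186, and are printed 5′ to 3′ on the minus strand, the strand of each gene, with a motif match in capitals.

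Btnl9: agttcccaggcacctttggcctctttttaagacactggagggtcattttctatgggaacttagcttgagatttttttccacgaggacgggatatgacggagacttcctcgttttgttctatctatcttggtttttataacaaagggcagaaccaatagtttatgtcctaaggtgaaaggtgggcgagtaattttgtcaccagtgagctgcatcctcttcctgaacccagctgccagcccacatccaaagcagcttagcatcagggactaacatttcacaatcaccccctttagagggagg
Cbx8: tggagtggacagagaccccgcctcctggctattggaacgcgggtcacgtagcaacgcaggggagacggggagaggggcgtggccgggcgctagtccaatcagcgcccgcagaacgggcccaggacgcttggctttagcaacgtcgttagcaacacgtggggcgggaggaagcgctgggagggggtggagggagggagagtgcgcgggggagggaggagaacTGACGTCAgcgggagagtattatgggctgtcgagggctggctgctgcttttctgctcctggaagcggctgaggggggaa
Tpbpa: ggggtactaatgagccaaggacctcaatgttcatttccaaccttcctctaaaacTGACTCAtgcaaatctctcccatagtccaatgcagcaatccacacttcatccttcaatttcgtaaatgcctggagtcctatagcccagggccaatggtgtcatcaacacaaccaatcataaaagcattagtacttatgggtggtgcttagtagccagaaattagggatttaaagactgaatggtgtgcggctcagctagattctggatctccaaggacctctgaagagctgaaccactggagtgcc

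The motifs searched on both strands were GAS (TTCNNNGAA), ISRE (GAAA and GAAA with any 2 bases between them), the NF-κB consensus, AP-1 (TGANTCA) and CRE (TGACGTCA). Cbx8 held a CRE at bases -29 to -22 from its start, a motif present in 1.79% of 32851 promoters of the same length. Tpbpa held an AP-1 motif at -196 to -190, as did 7.81% of promoters. No match to any of these was found in these windows of Abcg3, Adra2a and Btnl9. The Adra2a window, chr19:54045009-54045308, lies inside the gene as annotated above, so bases around that annotated start were not searched. Of all promoters, 8.30% held a GAS, 3.44% an ISRE and 8.46% an NF-κB motif. A match is a string of letters, and no binding was measured.

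**Figure D1:**
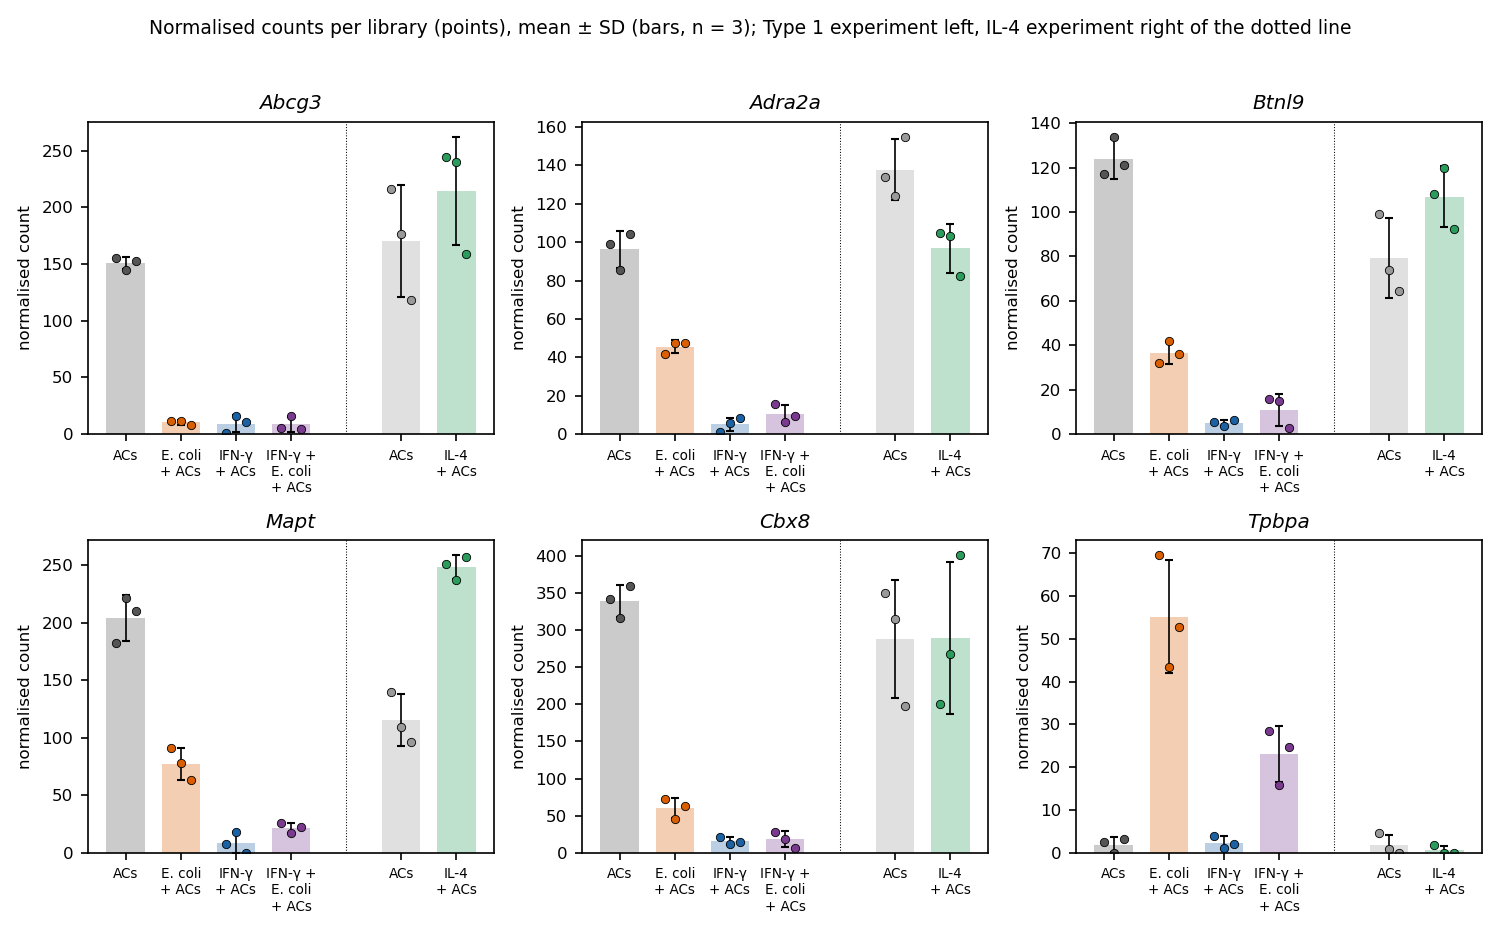
Normalised counts (y axis, linear) of the 6 genes in each library (points) by group (x axis), with bars for the mean and error bars for the SD of 3 libraries. Abcg3, Adra2a, Btnl9, Mapt and Cbx8 had their lowest means in the groups with IFN-γ, whereas Tpbpa was near 0 in every group without E. coli.

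The levels in the Type 1 experiment followed 3 patterns. Abcg3 was at about the same low level with either stimulus, at a mean of 10.4 with E. coli and 9.21 with IFN-γ against 151 in ACs. Adra2a, Btnl9, Mapt and Cbx8 were lower with E. coli and lower again with IFN-γ. Tpbpa was near 0 in ACs and with IFN-γ, and was at a mean of 55.2 with E. coli. Adding E. coli to IFN-γ left the 5 low genes low, and Tpbpa was then at a mean of 23.1.

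Abcg3 measured 155, 145 and 153 in the 3 ACs libraries. It measured 11.7, 11.4 and 7.92 in E. coli + ACs, 1.32, 16.1 and 10.3 in IFN-γ + ACs, and 5.70, 15.9 and 4.14 in IFN-γ + E. coli + ACs. All libraries with a stimulus were thus below all ACs libraries, and the 3 stimulated groups overlapped one another. The log2 difference from ACs, on the scale of log2(normalised count + 1), was -3.76 ± 0.59 (SE, n = 3 per group) for E. coli, -4.31 ± 0.59 for IFN-γ and -4.18 ± 0.59 for both. The IFN-γ value was -3.45 without replicate 1 of IFN-γ + ACs, which held 1 read, and -3.62 with a pseudocount of 5. The group means were 14.6-fold, 16.4-fold and 17.6-fold lower than in ACs. The sums behind the low groups were 37, 20 and 20 reads against 532 in ACs.

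Of the other ABCG half-transporters, 2 of 5 were tested, and neither passed the threshold (adjusted p under 0.05 and at least 1.5-fold) in any Type 1 comparison. Abcg1, a sterol exporter, was at means of 222, 156, 320 and 238 in ACs, E. coli + ACs, IFN-γ + ACs and IFN-γ + E. coli + ACs. Abcg2, a broad xenobiotic exporter, was at 24.1, 8.48, 10.8 and 14.0. Abcg4, Abcg5 and Abcg8 were at 0 in all libraries. Over the 2 genes tested, the median log2 difference was -0.95 for E. coli, -0.45 for IFN-γ and -0.35 for both, against -0.00, -0.00 and -0.05 over all genes tested.

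Adra2a measured 99.2, 85.4 and 104 in ACs and 41.9, 47.4 and 47.5 in E. coli + ACs. It measured 1.32, 5.73 and 8.21 in IFN-γ + ACs and 15.7, 6.11 and 9.66 in IFN-γ + E. coli + ACs. The E. coli libraries thus lay between the ACs libraries and those with IFN-γ, with no overlap on either side. The log2 difference from ACs was -1.06 ± 0.45 (SE) for E. coli, -4.21 ± 0.45 for IFN-γ and -3.16 ± 0.45 for both. Without replicate 1 of IFN-γ + ACs, which held 1 read, the IFN-γ value was -3.62, and with a pseudocount of 5 it was -3.39. Means were 2.11-fold, 18.9-fold and 9.16-fold lower.

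Adra2a was the only alpha-2 receptor counted, as Adra2b and Adra2c were at 0 in all libraries. Of 33 other genes of adrenergic receptors and their G proteins, adenylyl cyclases, RGS proteins, kinases and arrestins, 13 were tested. None was higher and 1 was lower with E. coli, 0 and 4 with IFN-γ, and 1 and 5 with both. Over all genes tested, 5.25% were lower with E. coli, 9.96% with IFN-γ and 17.2% with both, and 5.05%, 11.4% and 14.7% were higher. The same shares stand beside the counts of the other lists and of the neighbours in these comparisons. Their median log2 difference was -0.17, -0.13 and 0.04.

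Adcy7, an adenylyl cyclase of leukocytes, fell in all 3 comparisons, from a mean of 946 in ACs to 589, 329 and 544, with log2 differences of -0.68, -1.52 and -0.81 and adjusted p of 0.0016, 5.9e-08 and 8.1e-05 (limma). Rgs18, a regulator that shortens G-protein signalling, fell from 430 to 134 with IFN-γ (log2 -1.69, limma adjusted p = 8.7e-07) and 222 with both (log2 -0.97, adjusted p = 3.2e-04). Rgs2, of the same family, fell from 4569 to 2613 and 2429 in these comparisons (log2 -0.81 and -0.91, limma adjusted p = 3.0e-06 and 4.4e-07). Gnai2, the main inhibitory G-protein subunit of leukocytes, was at 6026 in ACs and between 6544 and 7555 with a stimulus, and did not pass.

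Btnl9 measured 117, 134 and 121 in ACs, and 31.8, 41.7 and 36.1 in E. coli + ACs. It measured 5.28, 3.44 and 6.16 in IFN-γ + ACs and 15.7, 14.7 and 2.76 in IFN-γ + E. coli + ACs. The 3 levels of ACs, E. coli and IFN-γ did not overlap, while both IFN-γ groups overlapped each other. The log2 difference was -1.74 ± 0.46 (SE), -4.42 ± 0.46 and -3.65 ± 0.46. The second was -3.70 with a pseudocount of 5, and the third -2.95 without replicate 3 of IFN-γ + E. coli + ACs. The means were 3.40-fold, 25-fold and 11.2-fold lower than in ACs. The 3 IFN-γ libraries held 10 reads of Btnl9 in all, against 435 in ACs. None of the 9 other butyrophilin genes reached the minimum for testing, and their group means were at most 2.07 normalised counts, so Btnl9 was the one gene of the family detected above that level.

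Mapt measured 182, 221 and 210 in ACs and 91.2, 77.7 and 63.3 in E. coli + ACs. It measured 7.91, 18.3 and 0 in IFN-γ + ACs and 25.7, 17.1 and 22.1 in IFN-γ + E. coli + ACs. Replicate 3 of IFN-γ + ACs thus held no Mapt read, where replicate 2 held 16. The log2 difference was -1.40 ± 0.65 (SE) for E. coli, -5.20 ± 0.65 for IFN-γ and -3.20 ± 0.65 for both, and the IFN-γ value depended on single libraries. It was -3.96 without replicate 3 of IFN-γ + ACs, -6.10 without replicate 2, and -4.19 with a pseudocount of 5. As means, Mapt was 2.64-fold, 23.4-fold and 9.47-fold lower than in ACs.

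Other neuronal genes were mostly not detected. Of 8 neuron markers, Rbfox3, Snap25, Syt1, Nefl, Nefm and Map2 were at 0 in all libraries of the Type 1 experiment. Tubb3, a neuronal beta-tubulin, rose with IFN-γ from a mean of 98.3 to 268 (log2 1.49, limma adjusted p = 2.6e-04), where Mapt was lowest. With E. coli, where Mapt was also lower than in ACs, Tubb3 fell to 41.4 (log2 -1.23, limma adjusted p = 0.0033). With both stimuli Tubb3 was at 96.6 (log2 0.00). Of 23 genes of other microtubule-associated proteins and of kinases that phosphorylate tau, 15 were tested. With E. coli 2 were higher and 1 lower, with IFN-γ 2 higher and none lower, and with both 4 higher and 3 lower, with median log2 differences of 0.11, 0.25 and 0.24. Map4, the widely expressed relative of tau, rose from a mean of 286 in ACs to 480 with IFN-γ (log2 0.73, limma adjusted p = 7.9e-04) and 721 with both (log2 1.33, adjusted p = 6.5e-07). Cdk5r1, which activates the tau kinase CDK5, rose from 1038 to 2086 with E. coli (log2 1.01, limma adjusted p = 3.4e-06) and to 2258 with both (log2 1.12, adjusted p = 1.9e-07).

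Cbx8 measured 342, 317 and 359 in ACs and 72.0, 45.0 and 62.5 in E. coli + ACs. It measured 21.1, 11.5 and 14.4 in IFN-γ + ACs and 28.5, 18.3 and 6.90 in IFN-γ + E. coli + ACs. E. coli libraries were below ACs and above both IFN-γ groups, with no overlap. The log2 difference was -2.51 ± 0.37 (SE), -4.39 ± 0.37 and -4.36 ± 0.37, and the means were 5.68-fold, 21.7-fold and 19.0-fold lower. In the first 2 comparisons these were the 27th and the 5th largest falls of 10166 genes, by which the gene was picked.

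The other PRC1 genes differed from ACs by less than Cbx8 and had log2 differences of both signs. With IFN-γ their median lay below that of all genes tested, which was -0.00. Of 19 tested, none was higher and 1 lower with E. coli, 1 and 3 with IFN-γ, and 3 and 6 with both, with median log2 differences of 0.01, -0.45 and -0.04. Cbx7, a chromobox subunit that can take the same place in the complex, fell with IFN-γ (log2 -0.77, limma adjusted p = 0.011) and with both (log2 -0.90, adjusted p = 0.0025). With E. coli its log2 difference was -0.72 with a limma adjusted p of 0.030, a call that was lost without any 1 of 5 of the 6 libraries compared (adjusted p 0.072 to 0.11, the exception being replicate 1 of E. coli + ACs), with no minimum mean (0.051) and in the joint fit of 18 libraries (0.094). Pcgf5, of the variant PRC1 complexes, rose with IFN-γ (log2 0.71, limma adjusted p = 0.0027) and with both (log2 1.26, adjusted p = 5.6e-06). Among 10 PRC2 genes tested, which place the mark that Cbx8 binds, 0 passed the limma threshold with E. coli or IFN-γ alone, and with both Suz12 was higher and Jarid2 lower.

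**Figure D2:**
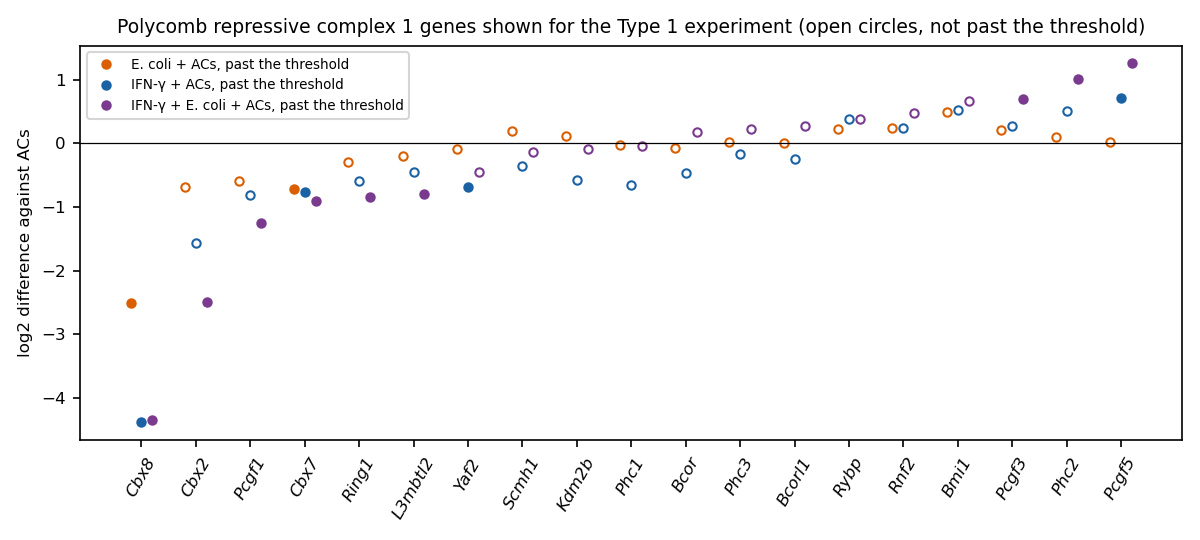
Log2 difference from ACs (y axis) of PRC1 genes tested in the Type 1 experiment (x axis, ordered by the value with both stimuli). Filled circles passed the threshold, and Cbx8, which was chosen for its change, lies at -2.51, -4.39 and -4.36, below every other gene plotted.

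Tpbpa measured 2.44, 0 and 3.26 in ACs and 69.5, 43.3 and 52.8 in E. coli + ACs. It measured 3.96, 1.15 and 2.05 in IFN-γ + ACs and 28.5, 15.9 and 24.8 in IFN-γ + E. coli + ACs. All 6 libraries with E. coli were above all 6 without it, and those with E. coli alone were above those with both. The log2 difference was 4.50 ± 0.59 (SE) for E. coli and 3.26 ± 0.59 for both. With a pseudocount of 5 it was 3.13 and 2.03, and without replicate 2 of ACs, which held no read, 3.85 and 2.61. The ACs libraries held 0 to 4 reads each, 7 in all, against 196 with E. coli and 51 with both. By summed reads the ratio was 27.7 (95% exact conditional binomial interval 13.2 to 69.9) for E. coli and 11.4 (5.16 to 29.8) for both. These intervals cover counting error only, and no ratio is given for IFN-γ, where 5 reads were counted in all.

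Other placental genes were mostly not detected. Of 9 trophoblast markers Prl3d1, Prl2c2, Prl8a8 and Plac1 were at 0 in all libraries, and Ascl2, the one gene tested, was at a mean of 44.6 in ACs and 6.09 in E. coli + ACs (log2 -3.14, limma adjusted p = 0.057), where Tpbpa was highest. Tpbpb, the neighbouring relative of Tpbpa, was at 0 throughout, as were the placental cathepsins Cts3, Cts6, Cts7, Ctsj, Ctsm and Ctsr. Of 12 other genes of this chromosome 13 cluster, only Ctla2a was tested. Ctla2a encodes a protein like the propeptide of cathepsins, which inhibits cathepsin L, and begins 1867 bases beyond the 3′ end of Tpbpa on the same strand. It rose with E. coli from a mean of 480 to 1930 (log2 2.03 ± 0.19, limma adjusted p = 4.0e-07). With IFN-γ it was at 344 (log2 -0.46, adjusted p = 0.076, limma), and with both at 475 (log2 -0.02, adjusted p = 0.95). Ctla2a thus stood at the ACs level with both stimuli, where Tpbpa was 11.4 times ACs by reads. Ctla2a overlaps the gene model Gm49391, which was at 0, and is close in sequence to Ctla2b, whose group means were at most 2.17. The study's methods describe the counting of uniquely mapped reads only, so that reads matching several similar genes would be left out. Of 11 cathepsin genes tested outside the cluster, none rose and 1 fell with E. coli, 3 rose and none fell with IFN-γ, and 1 rose and 3 fell with both.

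**Figure D3:**
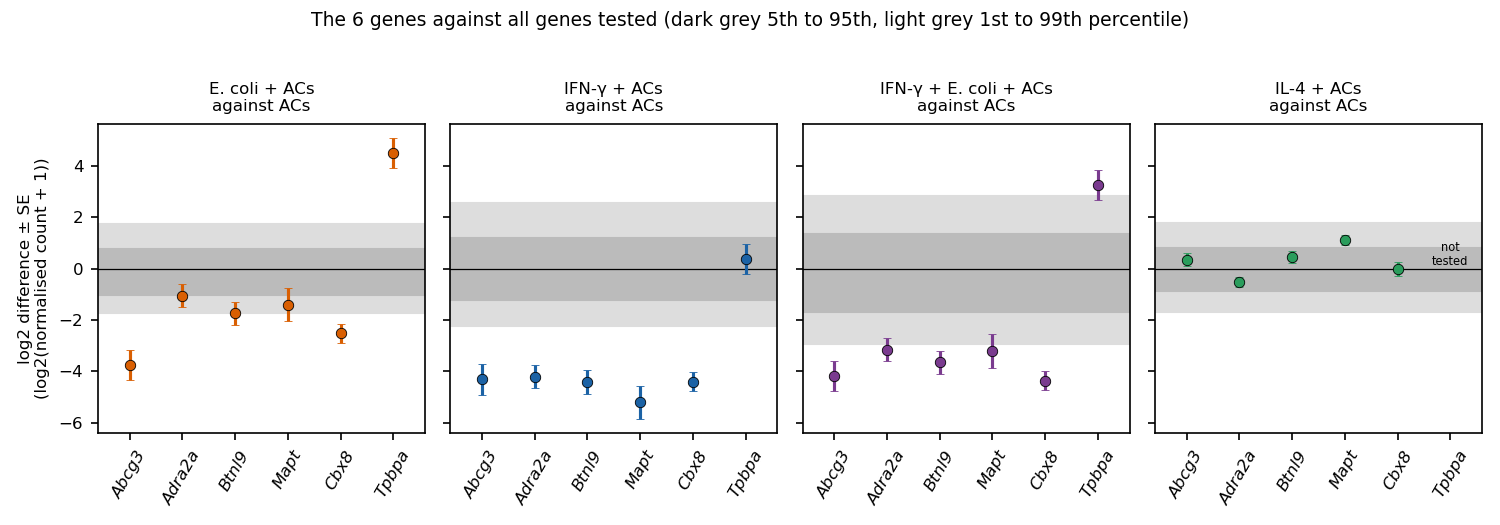
Log2 difference from ACs ± SE (y axis) of each gene (x axis) in the 4 comparisons, over the range of all genes tested (dark grey the 5th to 95th, light grey the 1st to 99th percentile). With IFN-γ, 5 genes lay below the 1st percentile of -2.22, whereas in the IL-4 experiment all 5 genes tested lay within -1.69 and 1.79.

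Read against all genes, the threshold was passed by 4 of the 6 with E. coli (Abcg3, Btnl9 and Cbx8 lower, Tpbpa higher), where 10.3% of 10166 genes passed, 5.25% lower and 5.05% higher. It was passed by 5 with IFN-γ, all lower, where 21.4% of genes passed, 9.96% of them lower. With both stimuli all 6 passed, 5 lower and Tpbpa higher, where 31.9% of genes passed, 17.2% lower and 14.7% higher. Since the genes were picked on these contrasts, nothing is read from the counts. By ranges alone, all 6 genes were apart from ACs with E. coli, where 19.9% of genes lay above and 18.4% below without overlap. The 5 low genes were apart with IFN-γ (20.3% of genes below, 22.6% above), and all 6 with both (23.9% above, 24.8% below). For Adra2a and Mapt with E. coli the side of the threshold depended on the setting, since both lay past it with a pseudocount of 5, with DESeq2 and with edgeR.

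With both stimuli the changes were smaller than the sum of the single ones on the log2 scale. For Abcg3 the sum of the single differences was -8.07 and the difference with both -4.18, which leaves 3.89 ± 0.83 (SE). The same remainder was 2.10 ± 0.63 for Adra2a, 2.51 ± 0.65 for Btnl9, 3.41 ± 0.92 for Mapt and 2.54 ± 0.52 for Cbx8, and -1.62 ± 0.83 for Tpbpa. Without replicate 1 of IFN-γ + ACs it was 3.03 for Abcg3 and 1.51 for Adra2a, and without replicate 3 of IFN-γ + E. coli + ACs it was 3.21 for Btnl9. For Mapt it was 4.31 and 2.17 without replicate 2 or 3 of IFN-γ + ACs, and for Tpbpa -0.97 without replicate 2 of ACs. The 5 low genes had 2 to 20 reads per library with both stimuli. With IFN-γ alone the sums were 20 reads of Abcg3, 10 of Adra2a, 10 of Btnl9, 22 of Mapt and 33 of Cbx8. On this scale a gene can fall only until no read is left, and the sum of -8.07 for Abcg3 lies beyond that limit. The sums of -5.26 for Adra2a, -6.16 for Btnl9, -6.61 for Mapt and -6.90 for Cbx8 lie within it. These sums rest on the few reads with IFN-γ alone. The remainder of Abcg3 cannot tell whether the effects add. Nothing is read from the remainders of any of these 5 genes. No remainder was tested, since the genes were picked on these groups. In the presence of E. coli, adding IFN-γ went with lower Adra2a (4.35-fold), Btnl9 (3.31-fold), Mapt (3.58-fold), Cbx8 (3.34-fold) and Tpbpa (2.39-fold), without overlap, whereas Abcg3 overlapped at 8.57 and 10.4. In the presence of IFN-γ, adding E. coli left Abcg3, Adra2a, Btnl9, Mapt and Cbx8 within overlapping ranges, and only Tpbpa was apart.

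IL-4 was the comparison that the choice of genes did not use, and asks whether a Type 2 cytokine moved the same genes. Mapt was higher with IL-4, and the other 4 genes tested did not pass the threshold. Over all 10669 genes tested, 1.09% passed, 0.740% higher and 0.347% lower.

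Mapt measured 140, 109 and 96.5 in the ACs libraries of this experiment and 251, 237 and 257 in IL-4 + ACs. All 3 IL-4 libraries were above all ACs libraries, as was the case for 8.45% of the genes tested. The means of 115 ± 22.3 and 249 ± 10.3 (SD, n = 3) gave a 2.16-fold rise, with a log2 difference of 1.12 ± 0.19 (SE) and a limma adjusted p of 0.023. The call rested on a small margin. The difference was 1.00 to 1.27 when 1 library was left out. The limma adjusted p was 0.096 without ACs replicate 2, and 0.13, 0.092 and 0.069 without IL-4 + ACs replicate 1, 2 or 3, so that each of these 4 libraries was needed for the call. It was 0.0029 without both shallow replicate 3 libraries, and 0.42 when the spread was estimated over all 18 libraries, which include the IFN-γ libraries where Mapt was near 0. On recovered reads it was 8.6e-04 with DESeq2 and 0.0053 with edgeR. Thus Mapt was lower than its own ACs libraries with IFN-γ and higher than its own with IL-4. The ACs libraries of the 2 experiments themselves did not overlap for Mapt, at 182 to 221 and 96.5 to 140, so levels are compared only within an experiment.

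Adra2a measured 134, 124 and 155 in ACs and 105, 103 and 82.2 in IL-4 + ACs. All 3 IL-4 libraries were below the ACs libraries, as for 8.84% of genes, and the log2 difference of -0.51 ± 0.20 (SE) had a limma p of 0.032 before and 0.47 after adjustment. Btnl9 measured 99.3, 74.0 and 64.3 in ACs and 108, 120 and 92.5 in IL-4 + ACs, which overlapped (log2 0.44 ± 0.24, limma adjusted p = 0.59). Abcg3 measured 216, 176 and 118 in ACs and 244, 240 and 159 in IL-4 + ACs, which overlapped (log2 0.35 ± 0.26, limma adjusted p = 0.71). In both groups the lowest Abcg3 value was that of the shallow replicate 3. Cbx8 measured 350, 315 and 198 in ACs and 200, 268 and 401 in IL-4 + ACs, which overlapped (log2 -0.01 ± 0.28, limma adjusted p = 1.00). The 2 shallow libraries held the lowest Cbx8 value of ACs and the highest of IL-4 + ACs. Without them the difference was -0.52, which did not pass the threshold. The Cbx8 value near 0 thus depended on these 2 libraries. Tpbpa, at 0 to 4.51, had too few reads to be tested.

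None of the family genes described above passed the limma threshold with IL-4: 0 of 20 PRC1, 0 of 15 microtubule, 0 of 14 adrenergic and 0 of 11 PRC2 genes, and neither Abcg1 nor Ctla2a. With only 1.09% of all genes past the threshold, nothing is read from these counts. Ctla2a was at means of 224 in ACs and 81.0 in IL-4 + ACs (log2 -1.49 ± 0.33, limma adjusted p = 0.087), whereas with E. coli it rose. The summed macrophage markers were 21938 to 32083 in ACs and 18092 to 28758 in IL-4 + ACs, and the eosinophil markers 23049 to 26011 and 25844 to 28808. Their part in the rise of Mapt was not tested.

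Lists of reference genes for the stimuli were drawn up with earlier results of these data known. Their counts are a description and no test that the stimuli acted. Of 17 genes known to respond to IFN-γ, 17 rose with IFN-γ and 17 with both, 5 with E. coli, and 0 of 16 with IL-4 (limma). Of 17 genes known to respond to bacteria, 14 rose with E. coli, 12 with both, 5 with IFN-γ, and 3 of 16 with IL-4. Of 13 IL-4 response genes, 9 rose with IL-4. Of the 12 tested in the Type 1 experiment, 1 rose and 3 fell with E. coli, 3 rose and 3 fell with IFN-γ, and 2 rose and 3 fell with both. Adra2a, Btnl9, Cbx8, Mapt and Abcg3 thus lay low in libraries in which the IFN-γ genes were high, and Tpbpa high in those with the bacterial genes.

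The low level of the 5 genes in IFN-γ + ACs stood beside lower eosinophil markers. Of 10 eosinophil markers tested 6 fell with IFN-γ and 0 rose, with a median log2 difference of -0.76, and Siglecf, the surface lectin of mouse eosinophils, fell from a mean of 3237 to 1630 (log2 -0.99, limma adjusted p = 5.5e-07). The 5 genes differed by -4.21 to -5.20 in the same libraries. With E. coli, 1 of 10 eosinophil markers rose and 1 fell, while 7 of 12 macrophage markers fell, with a median of -1.09. With IFN-γ, 4 macrophage markers rose and 1 fell. With both, 7 macrophage markers fell and 3 rose, while 1 of 10 eosinophil markers rose and 2 fell. The eosinophil median was then -0.18, and the 5 genes differed by -3.16 to -4.36. The part of either cell type in the level of the 6 genes was not tested.

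Levels of the 6 genes were then set beside those of every gene with a mean of at least 50, after subtracting the ACs mean of the same experiment. These correlations over 18 libraries are driven by the groups, and are a description. The Pearson r between Btnl9 and Cbx8 was 0.97, and it was 0.80 to 0.97 among Abcg3, Adra2a, Btnl9, Mapt and Cbx8. With Tpbpa it was -0.26 for Adra2a and -0.66 for Abcg3. The genes most like Cbx8 were Pglyrp1, which encodes a peptidoglycan recognition protein (0.98), Btnl9 and Ighm, the immunoglobulin heavy constant mu gene (0.97 each). Pglyrp1 was at means of 2871 in ACs, 1337 with E. coli, 531 with IFN-γ and 554 with both. Ighm was at 911, 246, 110 and 128 in the same order, and was not among the B cell markers summed above. Those most like Btnl9 were Lrmp (0.98), Rgs14 and Cbx8 (0.97 each). Abcg3 was most like Alox12e, an epidermal-type lipoxygenase gene (0.95), Ighm (0.94) and Kctd12 (0.93). Adra2a was most like Cbfa2t3, a transcriptional corepressor, and Siglecf (0.96 each), and Oas1c (0.94). Cbfa2t3 was at means of 786, 314, 47.9 and 77.7 in ACs, E. coli, IFN-γ and both. Mapt was most like AW146154, Nedd4, a ubiquitin ligase, and Hsh2d (0.95 each), and Nedd4 was at 172 in ACs and 263 in IL-4 + ACs. Tpbpa was most like Trem1, an amplifier of myeloid inflammation (0.93), and the chemokine genes Cxcl1 and Ccl3 (0.92 each). Trem1 was at means of 34.5, 346, 71.5 and 250 in the 4 Type 1 groups.

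The genes next to each of the 6 on the chromosome were described in the same way. Of 36 protein-coding neighbours, 3 on each side, 16 were tested in the Type 1 experiment. With E. coli 1 rose and 2 fell, with IFN-γ 3 rose and 4 fell, and with both 5 rose and 4 fell. Their median log2 difference was -0.29, -0.03 and 0.00.

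Abcg3 adjoins a cluster of guanylate-binding protein genes, interferon-induced GTPases of cell-autonomous defence, which were higher than in ACs with IFN-γ but not with E. coli alone, whereas Abcg3 was low with either. Gbp8, 31432 bases away, rose from a mean of 59.6 in ACs to 339 with IFN-γ (log2 2.50 ± 0.19, limma adjusted p = 9.6e-09). Gbp9 rose from 184 to 366 (log2 0.99, limma adjusted p = 2.7e-04) and Gbp4 from 186 to 2285 (log2 3.63, adjusted p = 1.0e-11). With uniquely mapped reads only, as the methods describe, reads shared between these similar genes would not be counted. With E. coli alone Gbp8 fell to 23.5 (log2 -1.31, limma adjusted p = 9.8e-05), a call lost in the joint fit of 18 libraries (adjusted p = 0.29), and Gbp9 and Gbp4 were at 136 and 152 and did not pass. With both, Gbp8 was at 770. On the other side Zfp951, a zinc finger gene 74987 bases away, fell from 23.3 to 4.62 with IFN-γ (log2 -2.44, limma adjusted p = 0.0063).

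Cbx8 lies beside Cbx2, which encodes a further chromobox subunit. Cbx2, 5035 bases away, was at means of 28.0 in ACs, 16.0 with E. coli, 9.35 with IFN-γ and 4.64 with both, and fell with both (log2 -2.50 ± 0.58, limma adjusted p = 0.0022). Its log2 difference with IFN-γ was -1.56 (adjusted p = 0.054, limma). Both chromobox genes were thus lowest in the groups with IFN-γ, Cbx8 by 19.0-fold against ACs with both stimuli in group means.

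Near Adra2a, Pdcd4, an inhibitor of translation 114291 bases away, fell in all 3 comparisons (log2 -1.44, -1.36 and -2.24, limma adjusted p = 2.4e-04, 1.9e-04 and 3.4e-07), whereas Bbip1 and Shoc2, which lie between them, did not fall. Shoc2 rose with both (log2 0.79, adjusted p = 0.0060, limma). Next to Mapt, Kansl1 was at means of 117 in ACs and 140 with IFN-γ and did not pass (log2 0.27, limma adjusted p = 0.28). With both stimuli Kansl1 rose to 178 (log2 0.59, limma adjusted p = 0.014), whereas Mapt was lower than in ACs. Arf2, a small GTPase gene on the other side, rose with IL-4 from 175 to 340 (log2 0.96 ± 0.16, limma adjusted p = 0.018), as Mapt did, but did not pass in the Type 1 experiment. The Arf2 call was lost with a replicate block (adjusted p = 0.063, limma), without ACs replicate 1 (adjusted p = 0.10, limma) and without IL-4 + ACs replicate 1 or 2 (0.13 and 0.099). Beside Btnl9, Mgat1 fell with IFN-γ (log2 -0.59, limma adjusted p = 0.022), Zfp62 did not pass, and the 4 olfactory receptor genes were at 0 or near it in the Type 1 experiment.

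**Figure D4:**
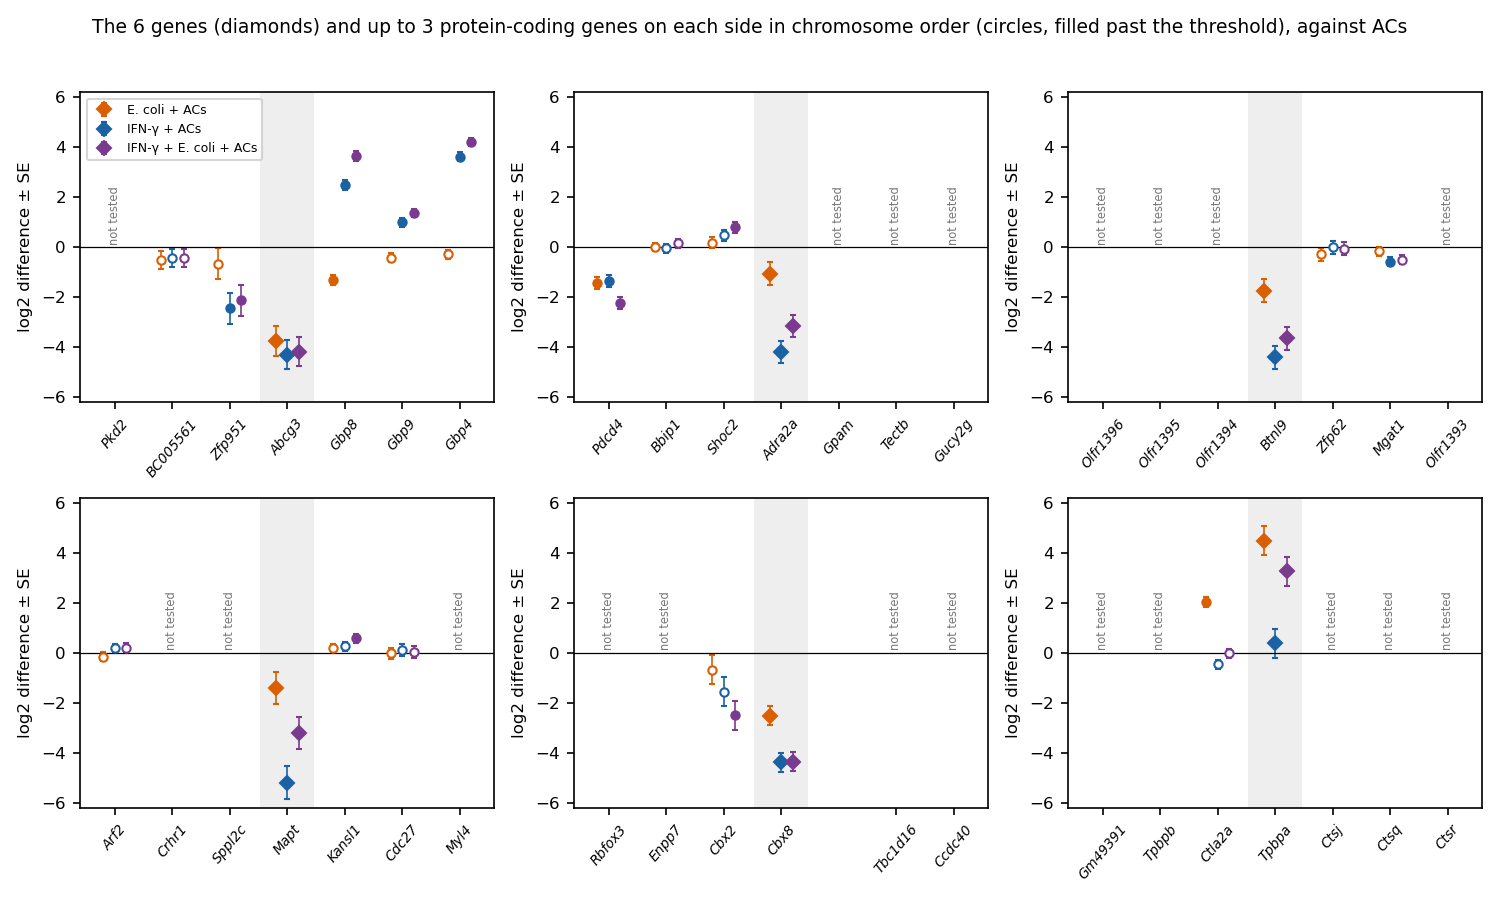
Log2 difference from ACs ± SE (y axis) for each of the 6 genes (diamonds) and up to 3 protein-coding genes on each side in chromosome order (circles, filled where they passed the threshold). Abcg3 lies low beside Gbp8 and Gbp4, which lie at 2.50 and 3.63 with IFN-γ, and Tpbpa lies high beside Ctla2a, at 2.03 with E. coli.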

How the data were processed

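RNA of 18 libraries (CEL-Seq2, 3′ ends) was analysed from 1 table of normalised counts, the signal deposited by the authors, which they made with DESeq2 from reads aligned to GRCm38. The submitters' processing notes name TopHat2 2.1.0, Bowtie2 2.2.6, HTSeq 0.6.1, cutadapt 1.10 and DESeq2 1.26.0, while the study's methods also name STAR. Which of them made this table is not given in the sources used here. Values were whole multiples of 1 read per library, and for 100.0% of them whole reads were recovered within the rounding of 0.005. Of the identifiers, 54409 matched a GENCODE M21 symbol without the version, 53229 with it.

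log2(normalised count + 1) was fitted with limma 3.58.1 (R 4.3.3, eBayes with trend) for genes with a mean of at least 10, the 12 libraries of the Type 1 experiment and the 6 of the IL-4 experiment apart, with Benjamini-Hochberg adjustment over all genes tested. The threshold was adjusted p under 0.05 and at least 1.5-fold. ACs libraries were assigned to an experiment by the naming in their descriptions. No pair of replicates agreed within sampling noise (chi-square per degree of freedom 3.92 to 13.2). With 3 against 3 libraries an exact two-sided permutation test cannot go below p = 0.10, and none was used.

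The 6 genes and all gene lists were chosen with earlier results of these data known. Named genes were the 6, the genes of the lists, the 3 most correlated genes and the 3 protein-coding neighbours on each side, and some of these genes are counted but not reported by name here. Alternatives were pseudocount 5, no minimum or a mean of 50, a replicate block, upper quartile scaling, DESeq2 1.42.0 and edgeR 4.0.16 on the recovered reads, a joint fit of the 18 libraries and leaving out each library. The fits were tested on simulated data.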

Additional observations from a re-analysis of the deposited data

Results flagged for a closer look

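The effect of E. coli differed between eosinophils without and with IFN-γ for several genes, given as the log2 effect with IFN-γ minus that without it. Adra2a (2.10 ± 0.63, SE) and Mapt (3.41 ± 0.92) were lower with E. coli alone in every library, and above the IFN-γ + ACs mean in every library with both, and this difference was not tested because the genes were chosen on these groups. Their ranges with IFN-γ and with both overlapped. The IFN-γ + ACs means rested on 10 reads of Adra2a and 22 of Mapt. No opposite effect of E. coli, and no change of its effect by IFN-γ, is therefore read from the values of these genes.

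Among the genes named beside them, the difference was tested with limma over all genes. Adcy7 was at means of 946 in ACs and 589 with E. coli, but 329 with IFN-γ and 544 with both, a difference of 1.39 ± 0.19 (adjusted p = 1.3e-04). Rgs18 (1.17 ± 0.26, adjusted p = 0.0088) and Siglecf (0.53 ± 0.15, adjusted p = 0.031) moved in the same 2 directions. Gbp8 differed by 2.46 ± 0.27 (adjusted p = 1.6e-05), Gbp4 by 0.88 ± 0.25 (adjusted p = 0.035) and Gbp9 by 0.80 ± 0.25, which did not pass (adjusted p = 0.053) although all libraries moved in opposite directions. Ctla2a went the other way, by -1.59 ± 0.27 (adjusted p = 0.0011), from 480 to 1930 without and from 344 to 475 with IFN-γ.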

How the results depend on the processing

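Of the differences of the 6 genes from ACs, 404 values over all alternatives were counted as the same. A further 8 moved (6 of them with a pseudocount of 5, which gave smaller sizes), 6 no longer passed and 5 turned sign. With IL-4, the same meant the same direction and side of the threshold. In the Type 1 experiment it meant the same direction and a shift within the spread between libraries, whatever the threshold. The 404 therefore include Adra2a and Mapt with E. coli, which crossed the threshold in some settings. They also include Mapt with IFN-γ at -3.96 to -6.10, where the spread was wide. All 6 that no longer passed were Mapt with IL-4. Those that turned sign were near 0: Cbx8 with IL-4 ran from -0.27 to 0.23 and Tpbpa with IFN-γ from -0.26 to 0.78 when 1 library was left out. Genes past the threshold with IL-4 numbered 116, and 208 with no minimum, 209 with DESeq2, 212 with edgeR, 221 in a joint fit of all 18 libraries, 74 with a replicate block, 47 to 130 without 1 library, the 47 without IL-4 + ACs replicate 1, and 656 without both shallow replicate 3 libraries, an alternative chosen after seeing the data. Of the 6 genes, 1 (Mapt) passed with IL-4, and 0 in the joint fit, 0 with the replicate block (Mapt limma adjusted p = 0.068) and 0 to 1 without 1 library. In the Type 1 experiment the counts of 1047, 2173 and 3240 stayed within 1.5 times (777 to 1150, 1746 to 2271 and 2814 to 3423 without 1 library). With upper quartile scaling, 43.7% of the genes called with IFN-γ and 34.4% of those called with both were higher, against 53.4% and 46.1%, and the median of all genes with both moved from -0.05 to -0.18. Same-numbered libraries did not deviate together (mean correlation 0.01 in each experiment), so that the block is an alternative only. With a minimum mean of 50, Abcg3, Adra2a, Btnl9 and Tpbpa gave no Type 1 value. The depth of the 2 shallow libraries, where 1 read was worth over 5 normalised counts, limits the IL-4 comparison, and counts of at most 20 reads limit the levels with IFN-γ.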
